A study of Homo sapiens with 6 samples.

Results

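This account covers 10 genes listed as fetal liver plasma proteins: AFP, ALB, SERPINA1, FGA, FGB, FGG, AHSG, TF, TTR and CYP2C19. All encode plasma proteins except CYP2C19, which encodes an enzyme. The 10 genes were taken by symbol from the 38606 human features of 6 single-nucleus RNA libraries, and each symbol matched exactly 1 feature. The libraries come from teratomas, mixed-tissue tumours grown here from H1, an established human embryonic stem cell line. The groups are a knockout of the long non-coding RNA LNCPRESS1 (KO, n = 2), a line labelled ΔATG (DATG, n = 2), an alteration on which the labels say nothing more, and wild type (WT, n = 2). In all 3 groups cells were mixed with matrigel and injected into the flank of immunodeficient NSG mice, so host cells were sequenced with the tumour. Whether a group's 2 libraries stem from separate tumours, animals or clones is not in the labels, so every test below measures only the spread between libraries, which may be technical. Where both libraries of a group are given, replicate 1 comes before replicate 2.

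Hepatocytes of the fetal liver, and the visceral endoderm of the yolk sac before them, secrete the bulk of the proteins in plasma. AFP is the main albumin-like protein of the fetus and ALB, its neighbour on the chromosome, replaces it around birth. The genes of this programme share transcription factors such as HNF4A, FOXA and CEBP proteins, and several of them are also used by intestine or choroid plexus.

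The libraries held 9281 and 7440 human nuclei in KO, 10931 and 5793 in DATG, and 5296 and 11053 in WT, with 22799743 to 36164313 human UMIs (unique molecular identifiers, 1 per RNA molecule counted) per library. Median depth was 2529 to 3937 UMIs per nucleus. DATG replicate 2 stood apart in its barcodes of mixed species, 3649 against 513 to 1095 in the other 5 libraries. Both DATG libraries had 0.509% and 0.525% of human UMIs from mitochondrial genes, against 0.0745% to 0.172% in the other 4. Any 2 libraries shared 5 to 33 nucleus barcodes. LNCPRESS1 itself was at the limit of detection, with 2 and 0 UMIs in KO, 1 and 3 in DATG and 7 and 2 in WT, so it could not check the labels.

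The albumin pair lies on chromosome 4, ALB at 73397114-73421412 and AFP at 73431138-73456174, both on the plus strand (GRCh38, GENCODE 29). The fibrinogen cluster lies on the same chromosome, with FGB at 154562956-154571086 on the plus strand, FGA at 154583126-154590766 and FGG at 154604134-154612967, both on the minus strand. AHSG (186612923-186621318) and TF (133745956-133796640) are on the plus strand of chromosome 3. SERPINA1 is on the minus strand of chromosome 14 at 94376747-94390693, and TTR on the plus strand of chromosome 18 at 31557010-31599021. CYP2C19 is on the plus strand of chromosome 10 at 94762681-94853205, in a cluster of closely related P450 genes. Reads could be split between such paralogs, so the value of CYP2C19 is uncertain to that extent.

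Promoters are shown for AFP and ALB, neighbours that were highest in the same class of nuclei (described next), and for CYP2C19, which had another pattern. RefSeq promoter windows (GRCh38.p14) were at hand for 9 of the 10 genes. The RefSeq start sites of AFP and ALB lie inside the GENCODE gene spans given above, downstream of their first bases. The letters TATAAA, the core of the TATA box that is known to place the start of transcription, were searched on both strands of the 250 bases before each start site. They stood in the windows of AFP and CYP2C19 and not in those of the other 7 genes, and 10.7% of all 35116 windows of that length held them. A match is a description of the letters and no evidence of binding. The 150 bases before the start site are shown 5′ to 3′ on the gene's strand, with the match in capitals. They are chr4:73436071-73436220 (+) for AFP, chr4:73404137-73404286 (+) for ALB and chr10:94762531-94762680 (+) for CYP2C19.
AFP: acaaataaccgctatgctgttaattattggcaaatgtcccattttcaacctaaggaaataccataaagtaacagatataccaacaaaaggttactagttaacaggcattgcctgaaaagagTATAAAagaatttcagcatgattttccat
ALB: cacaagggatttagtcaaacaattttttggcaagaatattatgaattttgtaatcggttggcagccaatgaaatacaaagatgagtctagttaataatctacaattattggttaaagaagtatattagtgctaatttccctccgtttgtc
CYP2C19: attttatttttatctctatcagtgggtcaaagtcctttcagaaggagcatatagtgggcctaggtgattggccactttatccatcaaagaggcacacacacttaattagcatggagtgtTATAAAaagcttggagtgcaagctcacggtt
Counted back from the start site, the match began at position -29 in AFP and -31 in CYP2C19, on the gene's strand in both. The ALB window held none.

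The 10 genes were read out by class of nucleus. The 49794 human nuclei formed 39 clusters, built without the 10 genes among the variable genes, and 31 of the clusters were named from marker lists as 17 classes. A cluster of 672 nuclei (1.35% of all) passed 12 of 14 markers of hepatocyte or yolk sac endoderm, such as the apolipoproteins APOA1, APOA2, APOB and APOC3 and the plasma proteins VTN, F2, HPX and PLG, and is called hepatocyte-like below. The lists do not tell liver from yolk sac. Its leading genes included MIR122HG, host of the liver microRNA miR-122, AKR1D1 of bile acid synthesis, and AHSG, AFP and TF. For 8 of the 10 genes the mean level over libraries was highest in this class. The class was named from other liver genes, at a resolution chosen after seeing the data, so this cannot test their label. TTR was highest in the choroid plexus-like class and CYP2C19 in the gut epithelium-like class. Since the classes were made from the same nuclei, these levels are descriptions and carry no test.

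**Figure D1:**
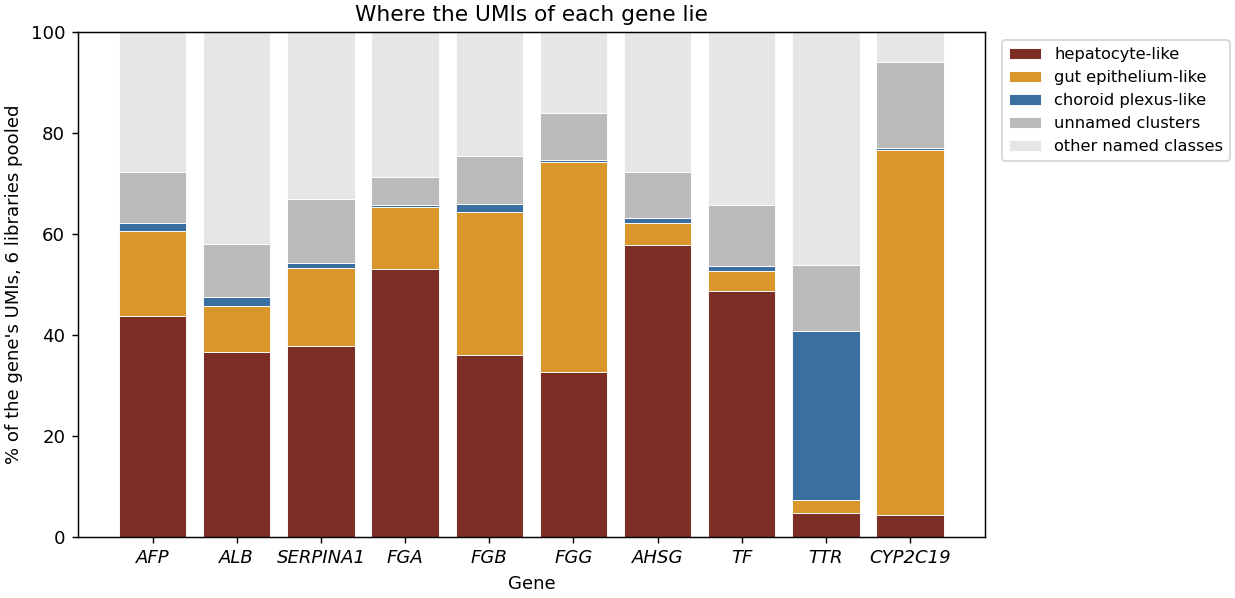
Share of each gene's UMIs (%, y axis) that lay in nuclei of each class, over the 6 libraries pooled, for the 10 genes (x axis). The hepatocyte-like class, 1.35% of nuclei, held 57.9% of AHSG UMIs and 4.65% of TTR UMIs, and the gut epithelium-like class held 72.4% of CYP2C19 UMIs.

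The hepatocyte-like class held 57.9% of the UMIs of AHSG (fetuin-A, a carrier of calcium phosphate), 53.2% of FGA, 48.7% of TF (transferrin, the iron carrier) and 43.7% of AFP. It held 37.9% of the UMIs of SERPINA1, the antitrypsin that inhibits neutrophil elastase, 36.6% of ALB, 36.0% of FGB and 32.7% of FGG. Gut epithelium-like nuclei (2023, 4.06% of all) were the next place for the fibrinogen chains, which form the clot, with 41.5% of the UMIs of FGG, 28.3% of FGB and 12.3% of FGA. They also held 17.0% of AFP UMIs but 3.99% of TF UMIs and 4.40% of AHSG UMIs. The 3 fibrinogen genes, which encode 3 chains of 1 protein, thus differed in where their pooled UMIs lay. For FGG the order depended on the library: averaged over the 6 libraries, 41.0% of its UMIs lay in hepatocyte-like and 32.7% in gut-like nuclei.

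Of 285 nuclei with UMIs of at least 5 of the 10 genes, 154 (54.0%) were hepatocyte-like and 81 (28.4%) gut-like. Over the 39 clusters the level of AFP had a Pearson correlation of 0.97 with SERPINA1, 0.94 with ALB and FGB, 0.91 with FGG, 0.90 with AHSG and 0.44 with TTR, on log2(CPM + 1), where CPM is the UMIs of a gene per 1000000 human UMIs. CYP2C19 correlated at 0.84 with FGG and at 0.05 with TTR. These are descriptions over clusters that share libraries and free RNA. Outside the list, the genes most like AFP were APOA1 (0.98), APOB (0.95), APOA4 (0.94), FABP1 and RBP4 (0.93 each). Those most like ALB were APOA2 (0.94), APOA1 (0.93), APOA4 (0.88), VTN (0.87) and APOB (0.87). FGG had the intestinal regulator CDX2 and UNC93A (0.91 each) at its head, and APOB (0.91), IHH (0.91) and TMEM207 (0.90) after them. For CYP2C19 they included ANXA13, EPS8L3, IL22RA1 (0.96 each) and TMEM45B (0.95). AHSG was closest to APOA2 (0.95) and TF to APOC3 (0.90). No gene stood as close to TTR, whose best correlation was 0.63, with SSR4 and ATP5MF.

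**Figure D2:**
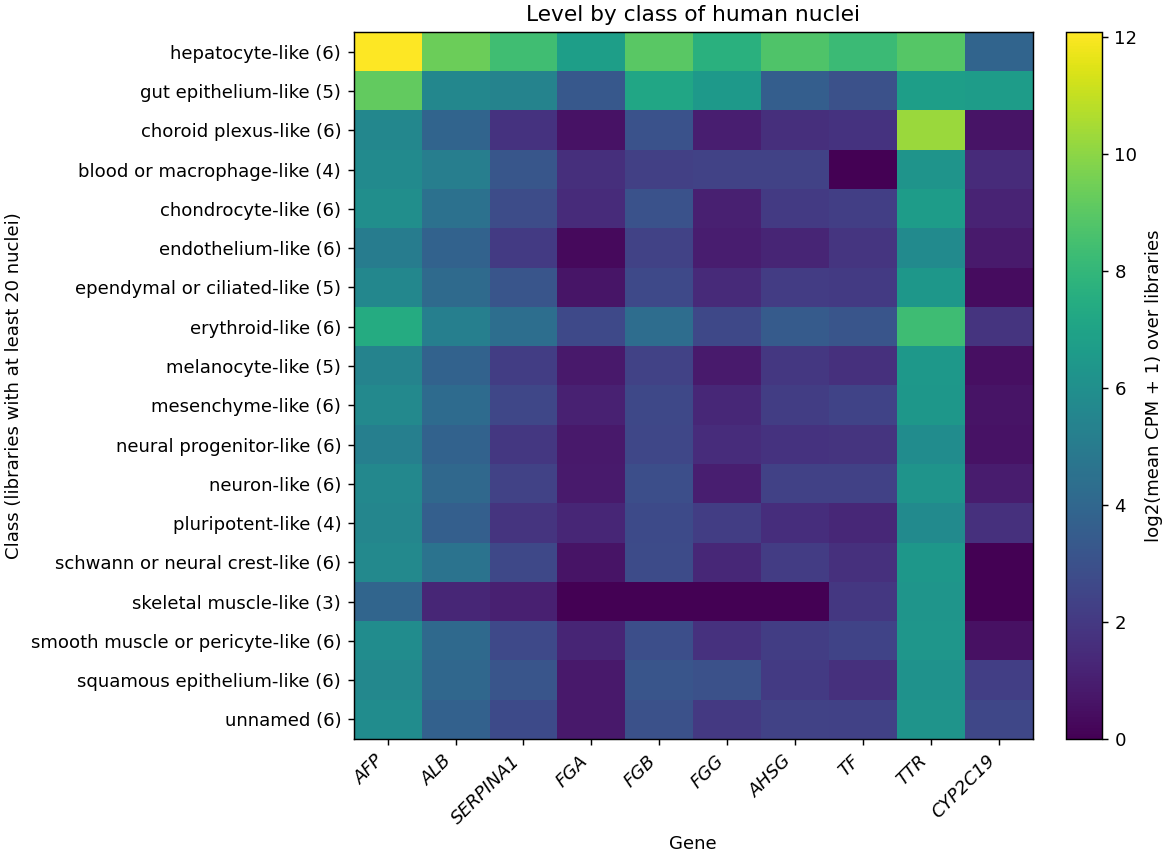
Mean level of each gene (x axis, colour as log2(mean CPM + 1)) in each class of human nuclei (y axis), averaged over the libraries with at least 20 nuclei of the class, whose number is in brackets. 8 of the genes peaked in the hepatocyte-like row, TTR in the choroid plexus-like row and CYP2C19 in the gut epithelium-like row.

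Within the hepatocyte-like class the 3 groups overlapped for AFP, and replicates of a group lay far apart. AFP stood at 1247 and 4625 CPM in KO, 14293 and 1691 CPM in DATG, and 1445 and 2833 CPM in WT. DATG replicate 1 was the highest library and its partner, DATG replicate 2, lay within the range of the other 4. The class rested on 121 and 41 nuclei in KO, 34 and 119 in DATG, and 126 and 231 in WT. The 2 libraries with the fewest nuclei, DATG replicate 1 and KO replicate 2, had the 2 highest levels. They also had the highest share of nuclei of the class with an AFP UMI, the shares being 31.4% and 87.8% in KO, 91.2% and 42.0% in DATG, and 58.7% and 67.1% in WT. With each nucleus thinned to 1000 UMIs, which left out 56 of the 672 nuclei, the shares were 25.4% and 65.8% in KO, 82.1% and 33.9% in DATG, and 39.8% and 51.7% in WT. The summed level of the 14 class markers, which leave out the 10 genes, also was highest in these 2 libraries, at 809 and 2794 CPM in KO, 6662 and 1079 CPM in DATG, and 1394 and 2002 CPM in WT. The summed level of pluripotency markers in the class ran from 57.7 to 283 CPM and was lowest in the same 2 libraries. The part of these differences in the levels of the 10 genes was not tested.

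ALB followed another order. It stood at 15.7 and 627 CPM in KO, 1625 and 985 CPM in DATG, and 114 and 562 CPM in WT within the class. KO replicate 1, with 10 ALB UMIs in 121 nuclei, was lowest. As a share of the AFP and ALB UMIs of the class, ALB made up 1.25% (exact 95% interval 0.600% to 2.28%) and 11.9% (10.5% to 13.6%) in KO. In DATG it made up 10.2% (9.15% to 11.3%) and 36.8% (34.6% to 39.1%), and in WT 7.30% (5.98% to 8.81%) and 16.6% (15.3% to 17.8%). These intervals cover counting error only. They take each UMI as independent, while few nuclei carried much of the ALB, as given next. The spread between nuclei is not in them, so they are too narrow to compare libraries. As a description, replicates of each group lay outside each other's interval, and the groups overlapped.

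ALB was carried by few nuclei. The 5 richest nuclei of the class held 100% and 84.7% of its ALB UMIs in KO, 97.1% and 91.8% in DATG, and 84.0% and 37.0% in WT. For AFP the same share was 47.7% and 38.3% in KO, 67.3% and 64.2% in DATG, and 37.3% and 40.7% in WT. WT replicate 2, lowest in this share for ALB, also had the most nuclei of the class (231), of which 5 are a smaller part. In KO replicate 1 only 4 nuclei had an ALB UMI, so its 100% was fixed. The share of nuclei of the class with an ALB UMI was 3.31% and 31.7% in KO, 35.3% and 10.9% in DATG, and 15.1% and 35.9% in WT. Over all classes 41 nuclei had 10 or more ALB UMIs, and 37 of them were hepatocyte-like. Of 271 nuclei with 10 or more AFP UMIs, 182 were hepatocyte-like and 56 gut-like.

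Among the remaining secreted proteins of the class, SERPINA1 stood at 17.3 and 150 CPM in KO, 1268 and 300.2 CPM in DATG, and 53.5 and 176 CPM in WT. In DATG replicate 2 a single nucleus held 110 of the 209 SERPINA1 UMIs of the class. AHSG stood at 165 and 627 CPM in KO, 1316 and 122 CPM in DATG, and 80.9 and 301 CPM in WT. FGB stood at 83.4 and 723 CPM in KO, 1672 and 164 CPM in DATG, and 131 and 297 CPM in WT. For AHSG, FGB and TF the 2 highest libraries were DATG replicate 1 and KO replicate 2, so the 3 groups overlapped. FGA ranged from 31.5 to 257 CPM, FGG from 34.2 to 504 CPM and TF from 45.6 to 959 CPM over the 6 libraries.

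No gene of the class passed edgeR's quasi-likelihood test in any of the 3 comparisons (0% of 11482 genes tested, Benjamini-Hochberg adjusted p under 0.05), which includes the 10 described here. With 1 library left out, the counts over all genes went up to 104 for DATG vs KO (without DATG replicate 2), and for DATG vs WT to 4 without KO replicate 1 and 5 without KO replicate 2, none of the 10 among them. For KO vs WT the log2 fold change of AFP was 0.55 ± 1.00 (SE, edgeR adjusted p = 1.00) and that of ALB 0.02 ± 1.30 (edgeR adjusted p = 1.00). For DATG vs WT they were 2.07 ± 1.04 for AFP and 2.07 ± 1.33 for ALB (both with an edgeR adjusted p of 1.00). The widest of these errors is above 1 on the log2 scale, so differences of several fold were not detectable here. SERPINA1 had a log2 fold change of 3.33 ± 1.15 for DATG vs KO (SE, edgeR unadjusted p = 0.0206, adjusted p = 0.548). These values moved with single libraries: AFP for DATG vs WT was -0.29 without DATG replicate 1, AFP for KO vs WT was -0.75 without KO replicate 2, and ALB for KO vs WT ran from -4.39 to 1.61 as each library was left out.

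In the gut epithelium-like class AFP stood at 162 CPM in KO replicate 2, 1280 and 456 CPM in DATG, and 541 and 476 CPM in WT. KO replicate 1, with 19 gut-like nuclei, is under the minimum of 20 and gets no level; KO replicate 2 had 53, against 71 and 785 in DATG and 282 and 813 in WT. FGG stood there at 118 CPM in KO replicate 2, 127 and 93.1 CPM in DATG, and 37.3 and 68.6 CPM in WT. FGB stood at 81.2 CPM in KO replicate 2, 309 and 115 CPM in DATG, and 79.4 and 111 CPM in WT. With 1 KO library, no spread within KO can be given here.

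TTR, the carrier of thyroid hormone and of retinol-binding protein, is known from both liver and choroid plexus, the epithelium that makes cerebrospinal fluid. The choroid plexus-like cluster (1510 nuclei) passed 8 of 12 markers, TTR not among them, and also 11 of 12 ependymal ones. TTR stood there at 1376 and 562 CPM in KO, 3942 and 7.33 CPM in DATG, and 552 and 1074 CPM in WT. DATG replicate 2, with 7 TTR UMIs in 290 such nuclei, was far below the other 5 libraries, which had 81 to 365 such nuclei. There 2.07% of nuclei had a TTR UMI, against 68.3% in DATG replicate 1, 24.0% and 21.0% in KO and 49.6% and 21.2% in WT. That DATG replicate 1 was highest and DATG replicate 2 lowest was not particular to the class. Among all nuclei outside the hepatocyte-like class, choroid plexus-like ones included, 13.2% and 11.1% had a TTR UMI in KO. The same share was 51.3% and 1.45% in DATG, and 39.8% and 15.8% in WT.

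Of the 12 other choroid markers 8 were also lowest in that library: HTR2C, CLIC6, FOLR1, SLC4A5, PRLR, ENPP2, MSX1 and TRPM3. HTR2C, a serotonin receptor typical of choroid plexus, stood at 2496 and 3181 CPM in KO, 5626 and 599 CPM in DATG, and 2174 and 2877 CPM in WT. OTX2, a regulator of choroid plexus, did not follow, with 278 and 170 CPM in KO, 321 and 319 CPM in DATG, and 210 and 298 CPM in WT. The summed level of the 12 markers was 8639 and 7273 CPM in KO, 14263 and 4088 CPM in DATG, and 7871 and 7977 CPM in WT. The summed level of the ependymal markers was 1671 and 1671 CPM in KO, 3138 and 848 CPM in DATG, and 1533 and 1851 CPM in WT. The part of these in the TTR level was not tested.

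TTR passed no comparison within this class (0% of 12646 genes called), with a log2 fold change of 0.26 ± 1.70 for KO vs WT and 1.30 ± 1.72 for DATG vs WT (SE, edgeR adjusted p = 1.00 for both). The DATG value rested on 1 library: without DATG replicate 1 it was -6.66 (edgeR adjusted p = 0.0285, with 2.98% of genes called lower), with the remaining DATG library assumed to vary like the other groups. In hepatocyte-like nuclei TTR stood at 337 and 498 CPM in KO, 1426 and 83.3 CPM in DATG, and 221 and 254 CPM in WT. Both classes thus had their lowest TTR level in DATG replicate 2 and their highest in DATG replicate 1.

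CYP2C19, a cytochrome P450 that oxidises many drugs in liver and intestine, had most of its UMIs in gut-like nuclei. The gut epithelium-like class held 72.4% of its UMIs and the hepatocyte-like class 4.23%. In the gut-like class it stood at 24.4 CPM in KO replicate 2, 40.2 and 130 CPM in DATG, and 194 and 113 CPM in WT. KO replicate 1 had 19 gut-like nuclei and 6 CYP2C19 UMIs in them, KO replicate 2 had 53 nuclei and also 6 UMIs, and DATG replicate 1 had 71 nuclei and 13 UMIs. Gut-like nuclei made up 0.205% and 0.712% of human nuclei in KO, 0.650% and 13.6% in DATG, and 5.32% and 7.36% in WT.

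CYP2C18, its neighbour on chromosome 10, was also higher in gut-like than in hepatocyte-like nuclei. In the more CYP2C19-rich of the 2 gut-like clusters (287 nuclei) CYP2C19 stood at 232 CPM, against 16.4 CPM in hepatocyte-like nuclei, and CYP2C18 at 248 CPM against 5.54 CPM. In all human nuclei CYP2C18 stood at 0.555 and 0.981 CPM in KO, 0.774 and 13.6 CPM in DATG, and 17.8 and 7.89 CPM in WT, again with both KO libraries and DATG replicate 1 lowest. Since reads of the paralogs can be exchanged, this likeness is not independent.

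Over all human nuclei of a teratoma, each of the 10 genes had a lower mean in KO than in WT. AFP stood at 40.2 and 70.1 CPM in KO, 109 and 133 CPM in DATG, and 137 and 250 CPM in WT. In these values the 3 groups did not overlap. With the TMM scaling that the test used, AFP was 151 CPM in DATG replicate 2 and 129 CPM in WT replicate 1. DATG and WT then overlapped, and KO stayed below both. ALB stood at 1.11 and 8.44 CPM in KO, 12.0 and 35.0 CPM in DATG, and 25.6 and 79.3 CPM in WT. KO lay below DATG and WT, which overlapped. CYP2C19 stood at 0.432 and 0.981 CPM in KO, 0.885 and 19.2 CPM in DATG, and 17.6 and 10.9 CPM in WT, with both KO libraries and DATG replicate 1 below the other 3.

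SERPINA1 stood at 1.30 and 3.67 CPM in KO, 10.2 and 18.3 CPM in DATG, and 8.42 and 20.8 CPM in WT. FGB stood at 3.18 and 11.4 CPM in KO, 15.4 and 23.6 CPM in DATG, and 15.9 and 30.9 CPM in WT. Both had their KO libraries below all others. TTR stood at 73.7 and 38.5 CPM in KO, 369 and 7.89 CPM in DATG, and 136 and 99.4 CPM in WT. The KO libraries lay below the WT libraries, and the DATG libraries held both the highest and the lowest value. In FGA (1.14 to 3.75 CPM), FGG (1.85 to 16.6 CPM), AHSG (4.38 to 20.9 CPM) and TF (3.05 to 17.8 CPM) KO and WT overlapped.

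**Figure D3:**
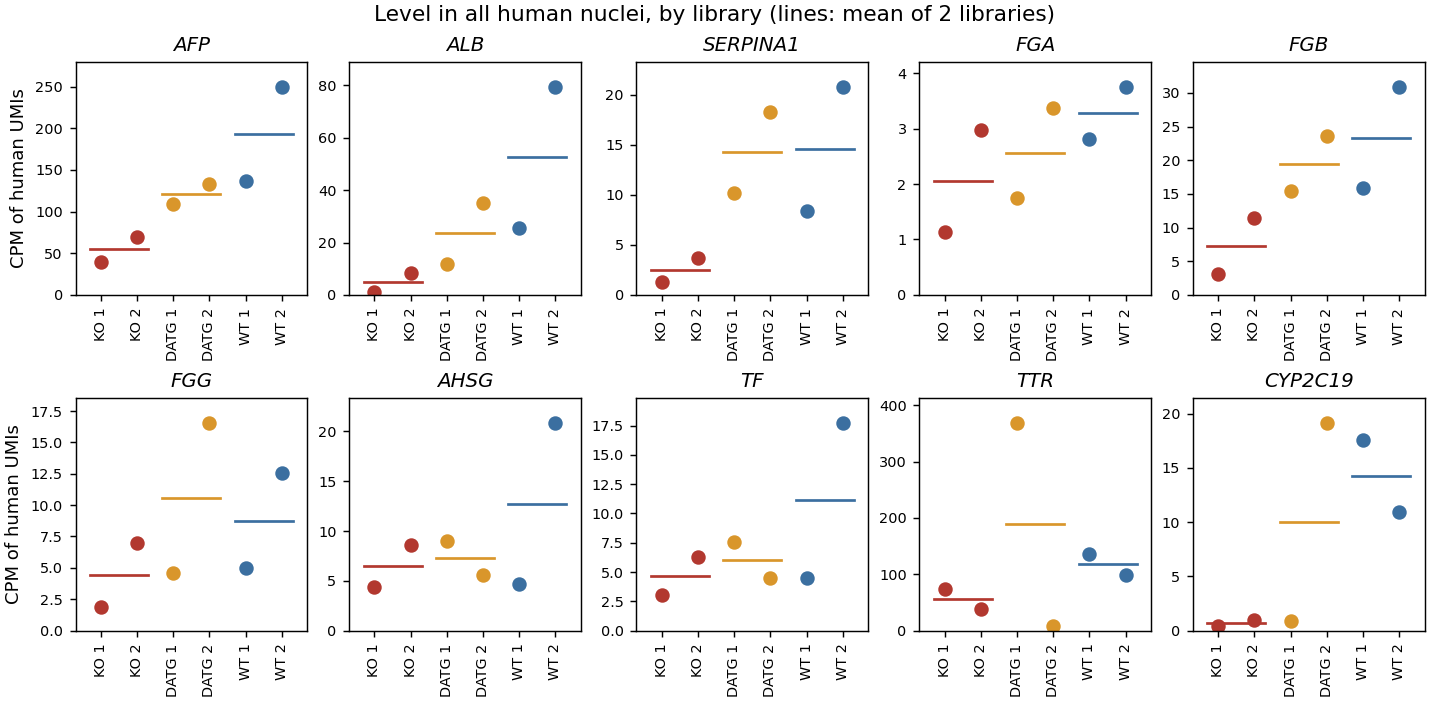
Level of each gene in all human nuclei (CPM of human UMIs, y axis from 0, a scale per gene) in the 6 libraries (x axis), with 1 point per library and a line at the mean of the 2 libraries of a group. The KO points lay below the WT points in 6 of the 10 genes (AFP, ALB, SERPINA1, FGB, TTR and CYP2C19).

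In 6 of the 10 genes both KO libraries lay below both WT libraries, and in none above. Of the 28047 genes with at least 30 UMIs, 24.0% did the same. For DATG vs WT the count was 1 of 10 (AFP), against 19.3% of genes. These counts are on CPM without TMM scaling, under which AFP overlapped between DATG and WT, as given above. In DATG vs KO both DATG libraries lay above both KO libraries in 4 of 10 (AFP, ALB, SERPINA1 and FGB), against 15.6% of genes. The median log2 fold change of the 10 was -1.42 for KO vs WT, -0.23 for DATG vs WT and 1.46 for DATG vs KO, beside medians of 0.01, 0.02 and 0.02 over all 26604 genes tested. Without WT replicate 2, the values of TF and AHSG for KO vs WT were 0.13 and 0.55, and those of the other 8 genes stayed below 0. The 3 comparisons share libraries, so they are not independent of each other. The 10 genes were chosen with earlier results of these data known, and they share nuclei and free RNA. The counts of the 10 beside all genes, here and below, are therefore descriptions and carry no test.

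None of the 10 passed the test in any comparison of all human nuclei, and neither did any other gene (0% of 26604 genes called in each, edgeR). For KO vs WT the log2 fold change was -1.77 ± 0.45 for AFP (SE, edgeR unadjusted p = 0.00726), -3.39 ± 1.16 for ALB, -4.27 ± 1.42 for CYP2C19 and -2.50 ± 0.75 for SERPINA1, each with an adjusted p of 1.00. These 4 of the 10 had an unadjusted p under 0.05 with a lower level in KO, as had 3.62% of all genes. For DATG vs WT none of the 10 had one, against 1.56% of genes lower and 1.45% higher. AFP, SERPINA1 and CYP2C19 had one in DATG vs KO with a higher level in DATG, against 4.28% of genes, at log2 fold changes of 1.26 ± 0.44, 2.64 ± 0.75 and 3.99 ± 1.41 (SE, edgeR adjusted p = 0.675 for each).

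**Figure D4:**
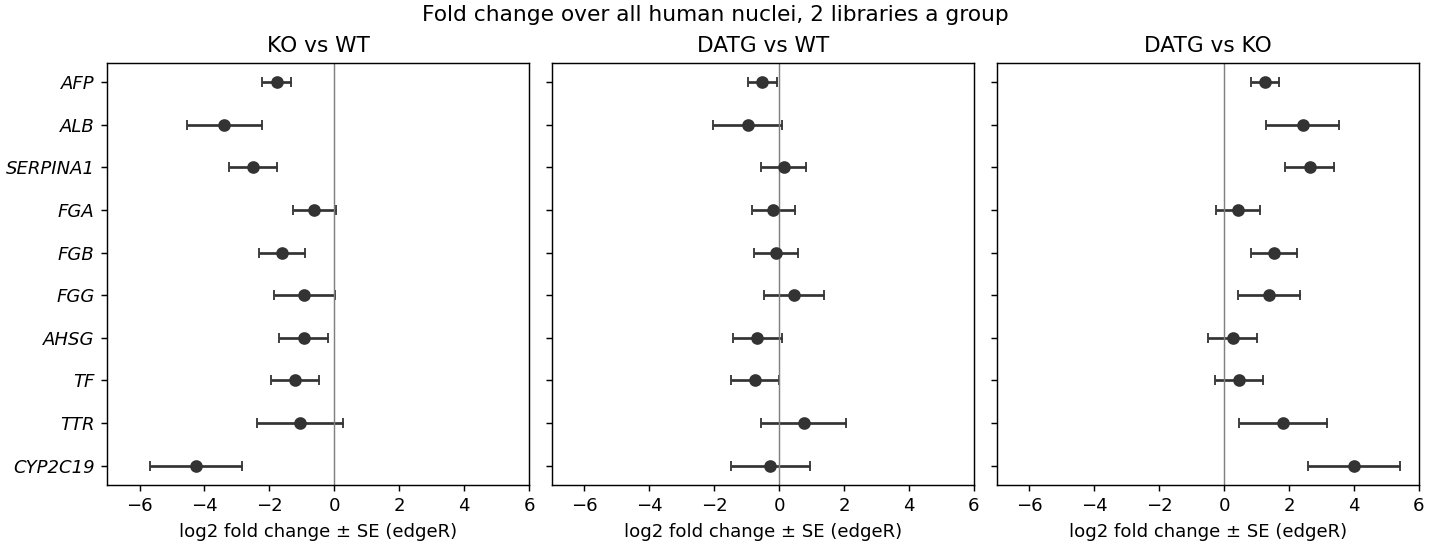
Log2 fold change of each gene (x axis, with its SE) over all human nuclei in KO vs WT, DATG vs WT and DATG vs KO (panels), 2 libraries per group, from edgeR on all 6 libraries. All 10 values lay below 0 in KO vs WT and above 0 in DATG vs KO, and none passed an adjusted p of 0.05.

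The test called more genes without the DATG libraries. Fitted on the 4 KO and WT libraries alone, 521 of 26027 genes were called, 402 of them lower in KO (1.54%). Among the 10 genes CYP2C19 then fell in KO (log2 fold change -4.29 ± 0.48 SE, edgeR adjusted p = 0.0143), and AFP (adjusted p = 0.0860 in edgeR), TTR (0.114), SERPINA1 (0.132) and ALB (0.232) did not pass. DESeq2 on all 6 libraries called CYP2C19 too (adjusted p = 0.0304), beside 0.429% of genes in either direction and 0.412% lower in KO. It called none of the 10 for DATG vs WT (0.249% of genes) or DATG vs KO (0.207% of genes).

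A lower level in a whole tumour can come from fewer cells of a type or from less RNA per cell, and in sums over nuclei these are set apart only as far as the classes are. Hepatocyte-like nuclei made up 1.30% (exact 95% interval 1.08% to 1.56%) and 0.551% (0.396% to 0.747%) of human nuclei in KO. In DATG they made up 0.311% (0.215% to 0.434%) and 2.05% (1.70% to 2.45%), and in WT 2.38% (1.99% to 2.83%) and 2.09% (1.83% to 2.37%). Both KO and both DATG libraries lay below both WT libraries, and DATG overlapped KO. The interval of DATG replicate 2 overlapped those of both WT libraries. All of these percentages are shares of a cluster, and many of its nuclei held no UMI of any gene described here. With nuclei thinned as above, those without such a UMI were 76 of 114 and 9 of 38 in KO. They were 4 of 28 and 69 of 112 in DATG, and 53 of 113 and 74 of 211 in WT. How far the shares of the class follow the nuclei that held these genes was not tested. With 2 against 2 libraries no exact test over libraries can reach a p of 0.05, so these shares carry none (the smallest two-sided p is 0.333).

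Much of the difference between KO and WT in AFP and ALB lay outside the hepatocyte-like class. The class held 60.8% and 61.7% of a library's AFP UMIs in KO, 69.0% and 38.9% in DATG, and 29.3% and 33.6% in WT. For ALB it held 27.8% and 69.4% in KO, 71.6% and 85.9% in DATG, and 12.3% and 21.0% in WT. With the class left out, the log2 fold change for KO vs WT was -2.61 ± 0.61 for AFP and -4.62 ± 0.83 for ALB (SE, edgeR unadjusted p = 0.00499 and 0.00141, adjusted p = 0.959 and 0.872). Both were further from 0 than over all nuclei. None of the 26490 genes tested there passed (0%), and 3.76% had an unadjusted p under 0.05 with a lower level in KO, 6 of the 10 among them (AFP, ALB, SERPINA1, FGB, TF and CYP2C19). The nuclei outside the class include the gut-like ones. Those held 1.15% and 1.60% of a library's AFP UMIs in KO, 10.5% and 45.2% in DATG, and 21.1% and 14.9% in WT. For ALB they held 0% and 0% in KO, 1.62% and 4.38% in DATG, and 26.1% and 7.69% in WT. The part of gut-like nuclei in the difference was not tested.

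Free RNA, released by broken nuclei and taken up in every droplet, was also higher in WT than in KO for AFP and ALB. For AFP, DATG overlapped KO in free RNA. Outside the hepatocyte-like class DATG lay above KO, with 34.1 and 83.8 CPM against 16.0 and 27.1 CPM. The part of free RNA in these values was not tested. Human UMIs in the 1389 mouse nuclei do not come from the mouse nucleus itself, apart from misassigned reads, and AFP made up 251 and 505 CPM of them in KO, 152 and 347 CPM in DATG, and 694 and 1386 CPM in WT. ALB had 0 UMIs there in both KO libraries, where 3 UMIs would be 83.8 and 34.4 CPM. It had 1 UMI in DATG replicate 1, where 3 UMIs would be 114 CPM, and made up 83.3 CPM in DATG replicate 2 and 157 and 843 CPM in WT. TTR made up 1033 and 379 CPM in KO, 2848 CPM in DATG replicate 1, and 1187 and 1060 CPM in WT, and had 2 UMIs in DATG replicate 2, where 3 UMIs would be 20.8 CPM.

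Neuron-like nuclei, which should lack these transcripts, also held the most AFP and ALB in the WT libraries. AFP stood there at 14.7 and 25.7 CPM in KO, 19.2 and 31.0 CPM in DATG, and 60.7 and 138 CPM in WT. ALB stood at 0.536 and 3.37 CPM in KO, 2.02 and 2.21 CPM in DATG, and 23.8 and 65.4 CPM in WT. With each nucleus thinned to 1000 UMIs, AFP was found in 1.56% and 3.08% of neuron-like nuclei in KO, 2.16% and 2.26% in DATG, and 8.10% and 15.9% in WT. Median depth of these nuclei was 2538 to 4409 UMIs, and that of hepatocyte-like nuclei 3041 to 8160 UMIs.

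In choroid plexus-like nuclei AFP stood at 11.9 and 7.26 CPM in KO, 25.2 and 22.0 CPM in DATG, and 61.7 and 157 CPM in WT. The log2 fold change there for KO vs WT was -3.46 ± 0.60 (SE, edgeR unadjusted p = 0.000391, adjusted p = 1.00), further from 0 than the -1.77 of the tumour as a whole. It passed without DATG replicate 1 (edgeR adjusted p = 0.0327) or without DATG replicate 2 (edgeR adjusted p = 0.0480), beside 0.0958% and 0.0635% of genes called lower. Erythroid-like nuclei, shallow and led by globin and heat shock genes, had the third highest mean AFP level, 173 ± 142 CPM (SD, n = 6).

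**Figure D5:**
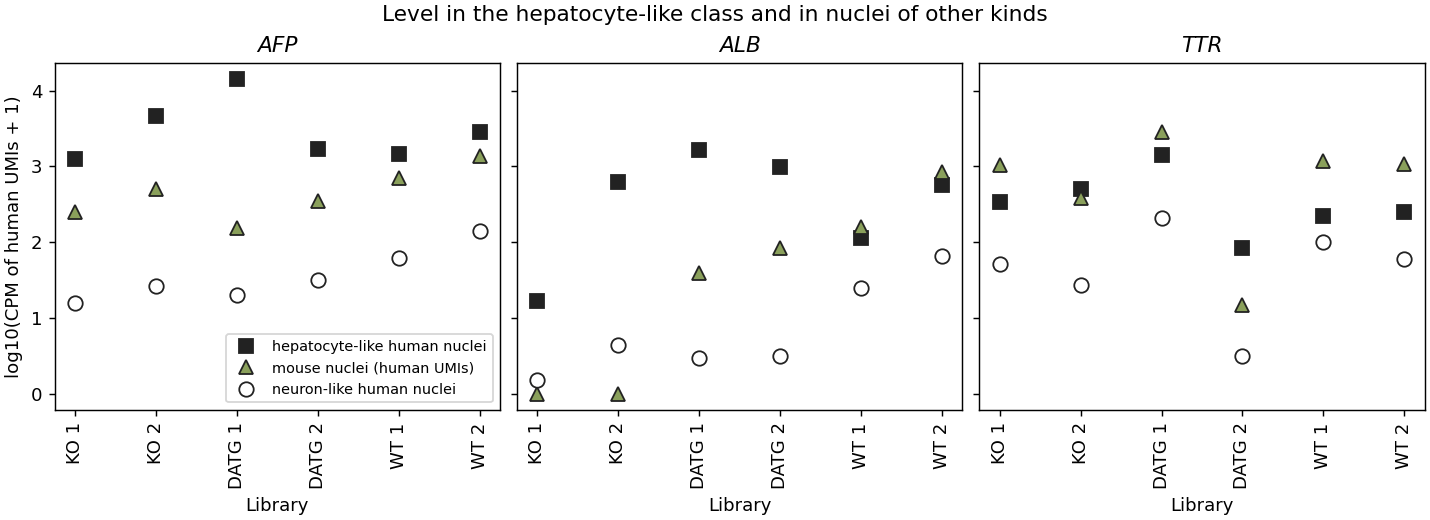
Level of AFP, ALB and TTR (panels, log10(CPM of human UMIs + 1) on the y axis) in hepatocyte-like nuclei (squares), among the human UMIs of mouse nuclei (triangles) and in neuron-like nuclei (circles) of the 6 libraries (x axis). AFP in neuron-like nuclei was 60.7 and 138 CPM in WT, above the 14.7 to 31.0 CPM of the KO and DATG libraries, while in hepatocyte-like nuclei WT lay within the range of the others.

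Other genes of the liver programme were read from lists chosen, like the 10, with earlier results of these data known. In the fit of all 6 libraries none of their members passed in any comparison (0% of 26604 genes called). For KO vs WT the values lay below 0 for 7 of 7 apolipoproteins (median log2 fold change -1.42), 19 of 21 hepatic transcription factors (-1.26), 23 of 29 other liver plasma proteins (-0.997), 12 of 16 P450 and liver metabolism genes (-0.87), 6 of 8 receptors for plasma proteins (-0.79) and both relatives of albumin (-3.13), against 48.4% of all genes. For DATG vs WT they lay below 0 for 7 of 7, 15 of 21, 26 of 29, 12 of 16, 8 of 8 and 1 of 2, against 47.4% of all genes.

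APOA1, known from high-density lipoprotein particles, had the smallest p of these genes in KO vs WT, with a log2 fold change of -2.36 ± 0.25 (SE, edgeR adjusted p = 0.824) and 10.6 ± 1.04 CPM in KO against 54.5 ± 8.32 CPM in WT (TMM-normalised, SD, n = 2 each). Among the transcription factors NR1H4, the bile acid receptor, stood at -3.33 ± 0.71, GATA4 at -3.35 ± 0.96 and CEBPA at -2.04 ± 0.60, all with an edgeR adjusted p of 1.00. Of the albumin relatives, AFM stood at -3.87 ± 1.28 and GC, the vitamin D carrier, at -2.39 ± 0.64, with the same adjusted p. VTN (-1.66 ± 0.44), FCGRT, the receptor that recycles albumin (-1.19 ± 0.33), and ASS1 of the urea cycle (-1.24 ± 0.34) headed the other 3 lists.

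In the fit of the 4 KO and WT libraries, 9 of 21 hepatic transcription factors fell in KO (among them NR5A2, NR1I2, NR1H4, GATA4, HHEX, HNF4A and CEBPA), against 1.54% of all genes. So did 5 of 16 P450 and liver metabolism genes (among them CPS1 and OTC of the urea cycle, CYP2C18 and CYP2B6), 2 of 7 apolipoproteins (APOA1 and APOB) and AFM. HNF4A, a known regulator of plasma protein genes, had a log2 fold change of -2.88 ± 0.29 (SE, edgeR adjusted p = 0.0108). None of 28 other liver plasma proteins and none of 8 receptors passed. Some of these regulators, such as HNF4A, are also known from intestine, and gut-like nuclei were few in KO, as given above. The part of this in the differences was not tested.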

How the data were processed

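Nuclei of flash-frozen teratomas were sequenced with the 10x Genomics 3' v3.1 kit (target of 10000 nuclei per library, per the labels). The authors deposited raw UMI count matrices of human and mouse genes, made with Cell Ranger, version 8.0.1 per the submitters' processing notes and 8.0.0 per the file headers. The notes name the builds GRCh38 and GRCm38, while the mouse features in the files carry the prefix of a later mouse build. Whether counting used introns and strand was not given in the sources used here. Of the columns of per-sample values, 0 were left unused.

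Barcodes with at least 500 UMIs and 300 genes were kept, as human or mouse where at least 90% of UMIs came from 1 species. Doublets were scored per library with scrublet, run through scanpy 1.11.5, and the highest scores were removed at 0.8% per 1000 nuclei. After scaling to 10000 UMIs per nucleus, the 2000 most variable genes apart from mitochondrial ones and the 10 described gave 30 principal components, 20 neighbours and Leiden clusters. Of the 10, all but CYP2C19 would otherwise have been among the variable genes. A cluster was named from at least 3 markers at 20 CPM or more and 2 times the level of the other clusters, and a class got a level in libraries with at least 20 nuclei of it. Resolution 2 was chosen after seeing the data, because at 1 and 0.5 no cluster could be named hepatocyte-like. At those settings, of which 1 was the planned one, these nuclei shared a cluster with pluripotent-like nuclei.

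UMIs were summed per library, over all human nuclei or a class, and tested with edgeR 4.0.16 (quasi-likelihood, robust, TMM, filterByExpr, all 6 libraries, R 4.3.3), with Benjamini-Hochberg adjustment over all genes tested and a threshold of 0.05. The fit was checked on simulated data. Exact (Clopper-Pearson) 95% intervals and the floor of 3 counts cover counting error only. CPM is not per length, so levels are compared within a gene. Alternatives were DESeq2 1.42.0, other scaling, filters, depth, species and doublet rules, fewer libraries, a replicate block and other clusterings.

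Named are the 10 genes, the called genes of each other list or else those of smallest p, and for each of the 10 the 5 genes (at least 20 CPM in a cluster) with the highest correlation over clusters; not all of these are printed. The members and lists were chosen with earlier results of these data known. Results on some genes are not reported here.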

Additional observations from a re-analysis of the deposited data

How the results depend on the processing

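None of the 10 genes passed in any comparison of all human nuclei under RLE scaling, no filter on low counts, a minimum of 1000 UMIs, 75% human UMIs or doublets kept. For KO vs WT 1 of the 10, CYP2C19, passed under DESeq2 and in the fit of the 4 libraries, and the count over all genes was 153 under DESeq2 and 521 in the 4 libraries, against 0 in edgeR on all 6. DESeq2 called 89 genes for DATG vs WT and 74 for DATG vs KO, none of the 10 among them.

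Leaving out each library in turn, the number of the 10 that passed ran from 0 to 1 for KO vs WT, 0 to 1 for DATG vs WT and 0 to 3 for DATG vs KO, and that of all genes from 0 to 673, 0 to 2403 and 0 to 6696. These calls appeared without DATG replicate 1 or replicate 2, where the remaining DATG library is assumed to vary like the other groups. Without DATG replicate 1 they were CYP2C19 for KO vs WT (edgeR adjusted p = 0.00745; 0.00945 without DATG replicate 2), TTR for DATG vs WT (0.00682), and CYP2C19, SERPINA1 and TTR for DATG vs KO (0.00132, 0.0452 and 0.00387). Log2 fold changes that changed sign ran, for KO vs WT, from -1.92 to 0.13 (TF) and -1.67 to 0.55 (AHSG). For DATG vs WT they ran from -1.44 to 0.60 (TF), -1.40 to 0.82 (AHSG), -2.08 to 0.10 (ALB), -0.90 to 0.013 (AFP), -0.55 to 0.49 (FGB), -0.86 to 0.25 (FGA), -0.88 to 1.31 (FGG), -3.94 to 0.64 (CYP2C19), -0.47 to 0.96 (SERPINA1) and -3.69 to 1.71 (TTR). For DATG vs KO they ran from -0.00055 to 1.16 (TF), -0.18 to 0.92 (AHSG), -0.22 to 1.38 (FGA) and -2.60 to 2.79 (TTR). Within the hepatocyte-like class they ran from -0.75 to 1.21 (AFP, KO vs WT), -4.39 to 1.61 (ALB, KO vs WT), -0.29 to 2.91 (AFP, DATG vs WT) and -0.81 to 2.76 (AFP, DATG vs KO), and the number of all genes called there ran from 0 to 5 for DATG vs WT and 0 to 104 for DATG vs KO, against 0 on 6 libraries, none of the 10 among them. TTR in the choroid plexus-like class ran from -0.51 to 0.82 (KO vs WT), -6.66 to 2.27 (DATG vs WT) and -6.91 to 2.03 (DATG vs KO). The cause was not tested.

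Whether the replicate numbers pair the libraries could not be settled (correlations of deviations 0.086 for KO vs WT, -0.149 for DATG vs WT and 0.427 for DATG vs KO). With 2 libraries per group the deviations of a group mirror each other, so each comparison gives a single correlation. With the replicate block 0 of the 10 passed, and TTR for DATG vs WT was -0.26, or -0.93 in 4 libraries. With the DATG numbers crossed, 1 gene was called for DATG vs WT, none of the 10, and TTR was -0.92. The hepatocyte-like share was 2.81% in DATG replicate 2, 2.95% in WT replicate 1 and 2.71% in WT replicate 2 with the 10 genes kept among the variable genes (834 nuclei in the class, 653 of them among the 672). Clusterings at resolution 1 and 0.5 gave no value. Without thinning, the mean share of hepatocyte-like nuclei with a UMI was 22.0% for ALB, 43.8% for TTR, 19.7% for FGA, 26.8% for FGG, 34.3% for AHSG and 5.58% for CYP2C19. With 2 libraries per group and 34 to 231 hepatocyte-like nuclei per library, depth limits the low genes FGA and CYP2C19 most.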
